A study of Mus musculus with 16 samples.

Results

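Transcripts of skeletal muscle fibres were followed in inguinal white adipose tissue, a subcutaneous fat depot, through a list of 45 genes named for muscle contraction, excitation and energy supply. Of these, 42 were measured among 16091 genes, 40 passed the filter on low values, and the levels of Myh7, Myl2 and Tnni1 were not analysed here. The 14 fast fibre genes and the 7 listed slow fibre genes are described apart. RNA was measured in 16 libraries from C57BL6/J mice, with 4 libraries in each of 4 groups: control diet without antibody, control diet with antibody, high-fat diet without antibody, and high-fat diet with antibody. The antibody, AF1447, was raised against PDGFcc, a growth factor of the platelet-derived family, and was injected into the peritoneum of mice aged 6 weeks. An age of 6 weeks is given for the untreated libraries too. Each dose was 50 mg/kg, made up with PBS to 100 µl, and doses were repeated every 2 days over 2 weeks. The sources used here do not say how long the diets lasted, whether untreated mice were injected, or whether each library came from its own animal. The p-values therefore measure the spread between libraries, which may be technical.

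Skeletal muscle fibres contract when myosin thick filaments pull on actin thin filaments, after calcium has left the sarcoplasmic reticulum and bound troponin. Fast fibres build this machinery from their own isoforms of myosin, troponin and the calcium pump and run largely on glycogen and phosphocreatine. Slow fibres use a separate set of isoforms and depend more on myoglobin and oxidative metabolism. Adipocytes lack sarcomeres, although some genes of the list, such as the carbonic anhydrase Car3, are also strongly expressed by fat cells, and others, such as desmin, by the smooth muscle of vessel walls.

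The start regions of 4 genes are shown because they include the gene used as reference for likeness (Acta1), the fast gene of widest range (Myh4), and the other 2 heavy chains of the same myosin cluster, whose order across libraries differed from that of Myh4 (Myh1, Myh2). Each is the 250 bases before the RefSeq transcription start in GRCm38.p6, written 5′ to 3′ on the gene's strand. Capitals mark matches, on either strand, to the E-box CANNTG (the letters bound by myogenic factors), the MCAT box CATTCC, the CArG box, the MEF2 site or TATAAA, and no matches overlapped in these windows. The window of Acta1 lies at chr8:123894776-123895025 on the minus strand, and the other windows lie on the plus strand at chr11:67237562-67237811 (Myh4), chr11:67199852-67200101 (Myh1) and chr11:67170777-67171026 (Myh2).
Acta1: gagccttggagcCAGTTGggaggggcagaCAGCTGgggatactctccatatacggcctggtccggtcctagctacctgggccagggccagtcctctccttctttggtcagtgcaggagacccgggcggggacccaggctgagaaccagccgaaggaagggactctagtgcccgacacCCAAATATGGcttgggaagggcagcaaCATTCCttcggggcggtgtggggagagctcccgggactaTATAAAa
Myh4: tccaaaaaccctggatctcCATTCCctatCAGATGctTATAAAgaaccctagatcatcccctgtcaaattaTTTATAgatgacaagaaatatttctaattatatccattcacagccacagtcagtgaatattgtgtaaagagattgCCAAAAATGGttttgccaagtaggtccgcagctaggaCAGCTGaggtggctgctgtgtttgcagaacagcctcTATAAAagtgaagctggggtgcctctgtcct
Myh1: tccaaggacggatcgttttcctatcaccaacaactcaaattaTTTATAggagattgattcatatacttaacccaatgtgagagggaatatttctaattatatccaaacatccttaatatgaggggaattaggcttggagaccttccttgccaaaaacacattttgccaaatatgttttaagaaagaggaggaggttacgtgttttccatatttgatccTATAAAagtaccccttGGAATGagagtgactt
Myh2: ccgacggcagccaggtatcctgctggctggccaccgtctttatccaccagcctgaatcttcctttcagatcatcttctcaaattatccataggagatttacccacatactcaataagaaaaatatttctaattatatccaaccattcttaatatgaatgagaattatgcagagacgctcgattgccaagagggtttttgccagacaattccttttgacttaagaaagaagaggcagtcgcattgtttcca
The Acta1 and Myh4 windows each held 2 E-box matches, 1 MCAT match and 1 CArG match. Myh1 had no E-box or CArG match but had 1 MCAT match and 2 TATAAA matches, and the Myh2 window held none of the letters searched. RefSeq gave a start region for 36 of the 45 genes, 46 regions in all, among them those of Myh7, Myl2 and Tnni1. An E-box was found in 40 of these 46 regions, 87.0%, beside 66.2% of all 32851 start regions, and 32 of the 36 genes had at least 1. The MCAT box was found in 10 regions, 21.7% beside 12.6% of all regions, and the CArG box in 3 (of Acta1, Myh4 and Myl3), 6.52% beside 1.47%. TATAAA was present in 7 regions, 15.2% beside 12.4%, and the MEF2 site in 1, of Ttn, 2.17% beside 0.508%. A match describes letters only.

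Together the 41 measured genes other than Car3 made up between 0.0141% and 3.49% of a library's total, with a median of 0.15%. Each library is named by its replicate number within the group. Without antibody on control diet the share was 0.169%, 0.232%, 0.0538% and 0.016% in replicates 1 to 4. With antibody on control diet it was 1.10%, 0.949%, 0.235% and 0.872%. On high-fat diet it was 0.0527%, 3.49%, 0.132% and 0.168% without antibody, and 0.0141%, 0.0684%, 0.0172% and 0.0214% with it. All 4 control-diet libraries with antibody were above all 4 without, by a narrow margin in replicate 3, and 1 library, high-fat diet replicate 2 without antibody, stood above the other 15. In bulk tissue, fewer muscle cells and less muscle RNA per cell cannot be told apart.

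Column totals ran from 24020000 to 28150000 normalized counts, and the read depth behind them is unknown. Adipocyte markers bore out the label of fat tissue, but the depot was not examined. The 10 adipocyte genes, among them Fabp4, Lpl, Adipoq and Plin1, summed to between 953400 and 1186000 in every library. The lowest sum was in high-fat diet replicate 2 without antibody. The same library had the lowest Ucp1, 14.8 against 30.15 to 44770 elsewhere. Ucp1 was also low in high-fat diet replicate 4 without antibody (30.15) and high-fat antibody replicate 3 (47.9). High-fat diet replicate 2 without antibody also had the highest sum of the 8 measured smooth muscle and mural markers, 34920 against 9775 to 21040 in the others. That list includes Des and Tpm2, while its defining genes Acta2 and Myh11 stood there at 3173 and 1233, within the range of the other libraries. The part of these differences in the muscle gene levels was not tested.

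**Figure D1:**
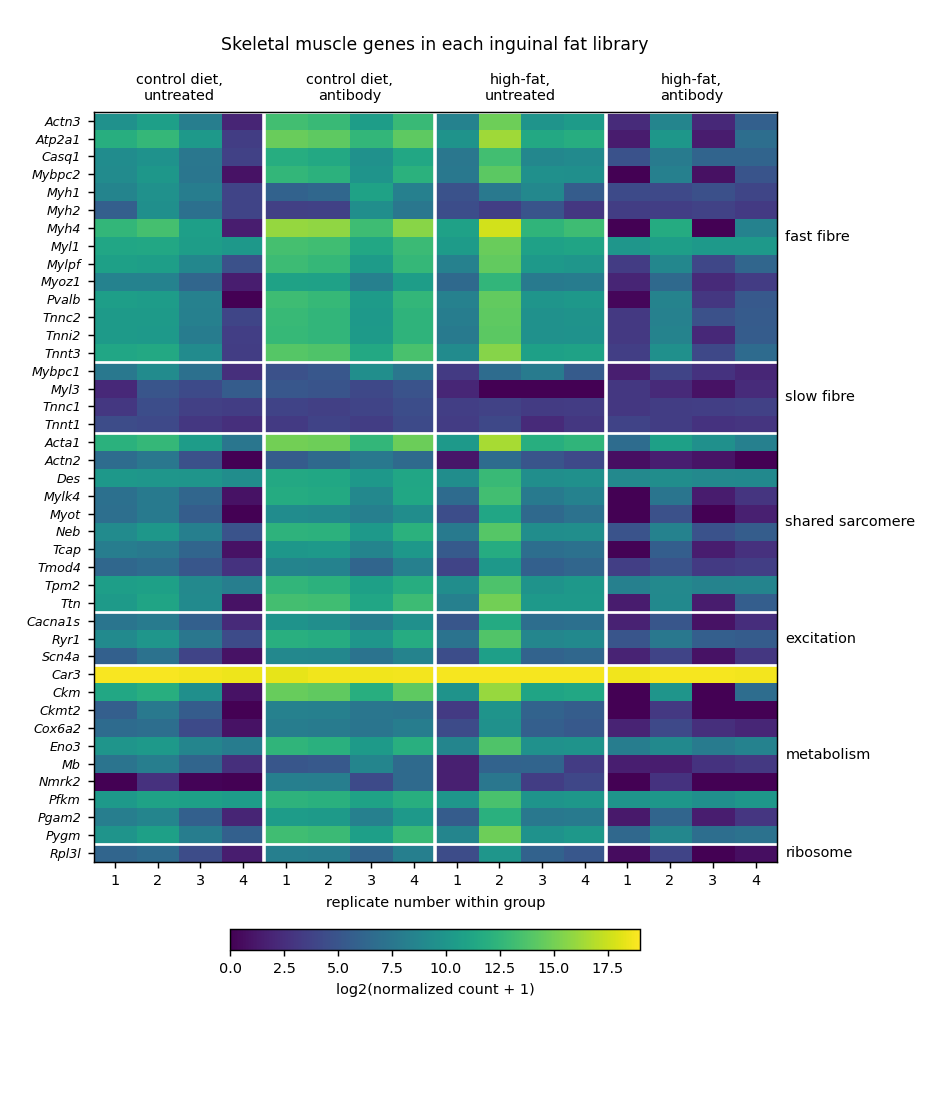
Colour gives log2(normalized count + 1) of each measured muscle gene (vertical axis, grouped by role) in each of the 16 libraries (horizontal axis, replicate number within each of the 4 groups). Most genes darken and brighten together from library to library, while Car3 stays near 1 level and Myh1, Myh2, Mybpc1, Mb and Myl3 follow other orders.

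Fast fibre genes spanned the widest range. Over the 16 libraries their log2 range had a median of 11.59, from 4.68 for Myl1 to 17.71 for Myh4. Myh4 encodes the IIB heavy chain, the fastest myosin of mouse muscle. Its normalized counts were 6269, 10550, 1654 and 1.91 in replicates 1 to 4 on control diet without antibody, and 66850, 58090, 8618 and 51510 with antibody. On high-fat diet Myh4 stood at 1866, 213700, 5598 and 8943 without antibody, and at 0, 3339, 0 and 334 with it. Thus 3 libraries (control diet replicate 4 without antibody, and high-fat diet replicates 1 and 3 with antibody) held next to no Myh4, and they came from 2 different groups.

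Atp2a1, the calcium pump SERCA1 of fast fibres, was at 3798, 6435, 1183 and 9.83 on control diet without antibody and at 26210, 20330, 6264 and 19680 with antibody. Its high-fat values were 871, 81380, 2832 and 3679 without antibody and 1.66, 1087, 1.71 and 117 with it. The same 3 libraries were lowest and the same high-fat library was highest. Its opposite-strand neighbour Rabep2 stayed between 452 and 739.

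Tnnt3, the fast troponin T that anchors the troponin complex to tropomyosin, read 2430, 2833, 568 and 9.83 on control diet without antibody and 16060, 13660, 2896 and 11820 with antibody. Its high-fat values were 582, 48150, 1796 and 1975 without antibody and 10.8, 740, 16.1 and 97.3 with it. On control diet the lowest library with antibody was just above the highest without, so the groups did not overlap for this gene.

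Mylpf, the fast regulatory light chain, read 1796, 1619, 434 and 24.7 on control diet without antibody and 8541, 6440, 1378 and 6384 with antibody. Its values on high-fat diet were 333, 22070, 1157 and 1023 without antibody and 9.29, 439, 15.2 and 77.5 with it. Here antibody replicate 3 on control diet lay inside the range of the libraries without antibody. Pvalb, the cytosolic calcium buffer parvalbumin, read 1617, 1463, 328 and 0 on control diet without antibody, and 8585, 6675, 1408 and 6068 with antibody. Pvalb on high-fat diet was 318, 21870, 937 and 1132 without antibody and 0.26, 365, 7.49 and 39.1 with it. For both genes the highest library and the 3 lowest libraries were those of Myh4, although Pvalb had another order among the lowest.

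Among the other fast fibre genes, troponin C (Tnnc2) ran from 7.81 to 20000, troponin I (Tnni2) from 3.64 to 19420, alpha-actinin 3 (Actn3) from 2.9 to 28710, and fast myosin-binding protein C (Mybpc2) from 0 to 18580. The calcium store protein Casq1 ran from 11.8 to 9824 and the Z-disc protein Myoz1 from 1.92 to 5839. Myl1, the fast essential light chain, never fell below 1025, and in the 3 libraries almost without Myh4 it was still at 1100, 1025 and 1189. Of its 50-base stretches 23.4% also occur in a pseudogene, Mylf-ps, which can share its reads.

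Myh1 and Myh2 encode the IIX and IIA heavy chains of the less extreme fast fibres, and their order across libraries was not that of Myh4. Myh1 read 373, 763, 264 and 13.8 on control diet without antibody and 63.4, 80.3, 1981 and 304 with antibody. High-fat libraries had 26.1, 209, 456 and 44.6 without antibody and 18.4, 17.6, 24.1 and 14.8 with it. Its highest library, control-diet antibody replicate 3, was the lowest of its group for Myh4. Myh2 read 51.9, 722, 131 and 13.8 on control diet without antibody and 11.1, 11.5, 679 and 183 with antibody. Myh2 on high-fat diet was 21.7, 10.3, 29.5 and 7.31 without antibody and 9.95, 10.8, 12.6 and 8.18 with it. Only 5 libraries exceeded 50, all of them on control diet.

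Proportions between genes of the same library were used to set aside the differing total of muscle RNA. On control diet without antibody Myh1 was 5.96%, 7.24% and 16% of Myh4 in replicates 1 to 3. With antibody it was 0.0948%, 0.138%, 23% and 0.590% in replicates 1 to 4, so that replicate 3 resembled the libraries without antibody and the other 3 did not. The high-fat proportions were 1.40%, 0.0977%, 8.14% and 0.499% without antibody and 0.527% in antibody replicate 2. The remaining high-fat antibody value was 4.42% in replicate 4, and both of these antibody values rest on Myh1 levels no higher than in the libraries without Myh4. Per kilobase of exon, Myh4 was the most abundant of the 3 heavy chains, 77.9% to 99.9% of their sum, in the 13 libraries other than the 3 almost without it. In control-diet replicate 4, one of those 3, Myh4 was 7.2%, Myh1 49.1% and Myh2 43.7%. These 3 genes share sequence: 26.7% of the 50-base stretches of Myh1, 26.9% of Myh2 and 18.9% of Myh4 occur in other transcripts, and an opposite-strand transcript, Myhas, overlaps Myh1 (0 to 121 normalized counts), so small Myh1 and Myh2 values beside very high Myh4 are uncertain.

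**Figure D2:**
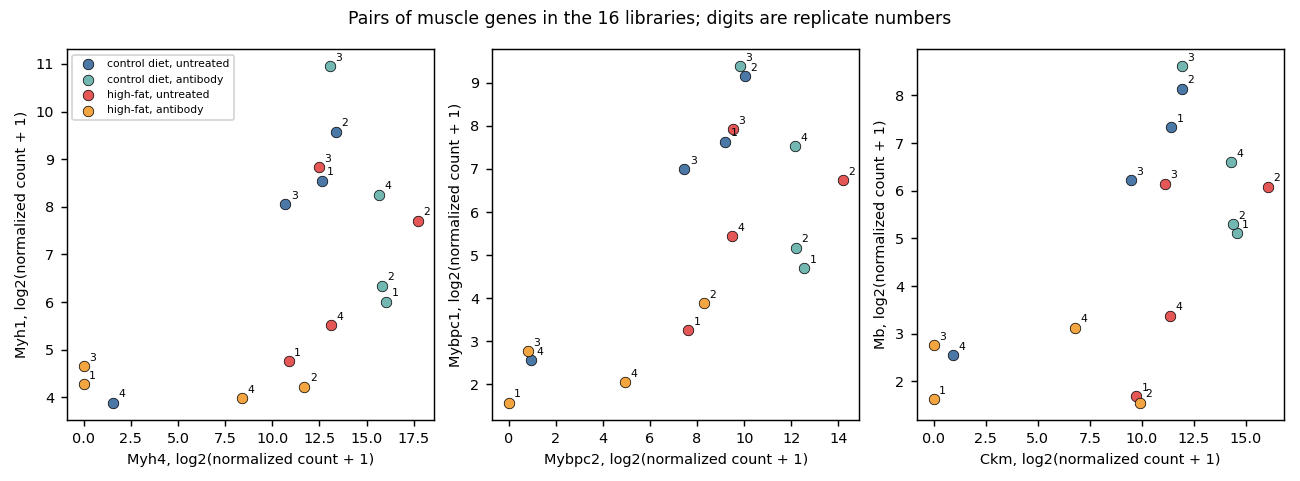
Each point is a library, coloured by group and numbered by replicate, with both axes on the log2(normalized count + 1) scale: Myh1 against Myh4 (left), Mybpc1 against Mybpc2 (middle) and Mb against Ckm (right). Control-diet antibody replicate 3 and control-diet replicate 2 without antibody are the 2 highest libraries on the vertical axis in each panel, above high-fat diet replicate 2 without antibody, which lies farthest to the right.

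Some other genes of oxidative or slower fibres repeated that split. Mybpc1, slow myosin-binding protein C, which some fast fibres also make, was 33.9%, 54.7% and 72.2% of Mybpc2 in control-diet replicates 1 to 3 without antibody. With antibody the values were 0.417%, 0.749%, 73.7% and 3.99%, and on high-fat diet without antibody 4.34%, 0.572%, 33.3% and 5.99%. Mb, the oxygen carrier myoglobin, was 5.89%, 7.33% and 10.4% of Ckm in those control-diet replicates, and 0.140%, 0.183%, 9.97% and 0.479% with antibody. On high-fat diet without antibody Mb was 0.262%, 0.0989%, 3.14% and 0.359% of Ckm. Actn2, the alpha-actinin of slow and oxidative fibres, was 13.5%, 10.7% and 8.95% of Actn3 in control-diet replicates 1 to 3 and 13.1% in antibody replicate 3, and at most 3.4% in any other library where it could be read. The same 4 control-diet libraries were thus among the high ones for all 4 proportions. Myh2 as a percent of Myh4 repeated this in part, at 6.85% and 7.94% in control-diet replicates 2 and 3 and 7.88% in antibody replicate 3. Control-diet replicate 1 had only 0.828%, below high-fat diet replicate 1 without antibody (1.16%) and high-fat antibody replicate 4 (2.45%). Those 2 high-fat values rest on Myh2 levels of 21.7 and 8.18. High-fat diet replicate 3 without antibody followed them for Mybpc1 and Actn2 and was above control-diet replicates 1 and 2 for Myh1. High-fat antibody replicate 4, with little Ckm, had 7.11% for Mb, above control-diet replicate 1. No test was made of these proportions.

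Slow fibre genes were scarce. Tnnt1, slow troponin T, lay between 3.88 and 20.1 in every library, and Tnnc1, the troponin C of slow and cardiac muscle, between 7.47 and 22. By group Tnnt1 read 20.1, 17.3, 7.25 and 4.92, then 8.62, 13.3, 9.91 and 18.5 with antibody on control diet. High-fat libraries had 9.32, 16.3, 3.88 and 7.25 without antibody and 13.5, 9.79, 5.74 and 6.5 with it. Tnnc1 read 7.52, 22, 11.4 and 9.88 without antibody and 12.8, 11.3, 14.2 and 21.6 with it on control diet, and 10.4, 12.4, 8.8 and 9.3, then 7.47, 9.79, 10.6 and 11.8 on high-fat diet. Neither gene followed the fast genes: their log2 ranges were 2.11 (Tnnt1) and 1.44 (Tnnc1), and both were too low to be tested. Mybpc1 had the widest range of the slow genes, from 1.96 to 669, with its peak in control-diet antibody replicate 3.

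Summed per kilobase, the 14 fast genes exceeded the 4 measured slow genes in every library, by a log2 ratio of 4.12 to 12.23 with a median of 7.22. The ratio was 6.18 at the median on control diet without antibody, 9.94 with antibody, 8.11 on high-fat diet without antibody and 5.72 with it. The lowest ratio was in control-diet replicate 4, where Myl3 made up 21.8 of the slow sum of 34.6 per kilobase. Leaving Mybpc1 out gave a median of 8.63. In control-diet replicate 4 and high-fat antibody replicates 1 and 3, almost without Myh4, the fast sum was mostly Myl1. Per kilobase, Myl1 was 530 of 601, 494 of 547 and 573 of 684. The median log2 ratio of the pairs Myl1/Myl3, Tnnc2/Tnnc1, Tnnt3/Tnnt1 and Mybpc2/Mybpc1 was 1.19, 0.295 and 1.79 there. For Mybpc2 to Mybpc1 alone it was -1.73, -2.42 and -2.13.

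Myl3, the light chain of slow and cardiac muscle, was set apart by its groups. It read 3.61, 30.9, 18.3 and 44.6 on control diet without antibody, and 34, 29.8, 16.6 and 27.9 with antibody. On high-fat diet without antibody it read 3.06, 0, 0 and 0.00575, and 7.25, 3.91, 0.923 and 4.15 with antibody. Its highest value came from control-diet replicate 4, a library almost without Myh4. Myl3 (chromosome 9, 110741861 to 110769798, plus strand, GRCm38) overlaps Pth1r, the parathyroid hormone receptor gene on the opposite strand. Pth1r read 786, 1385, 909 and 1935 on control diet without antibody and 780, 538, 598 and 642 on high-fat diet without antibody. With antibody Pth1r was 1527, 1562, 1332 and 1151 on control diet and 1023, 883, 536 and 893 on high-fat diet. Myl3 and Pth1r were thus both lower on high-fat diet without antibody, and both peaked in control-diet replicate 4. The libraries were made with a kit that keeps strand, but whether counting used strand is not given in the sources used here, and the part of Pth1r reads in the Myl3 values was not tested.

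Acta1, the skeletal alpha-actin of thin filaments, represents the shared sarcomere genes. It read 4521, 6440, 1477 and 179 on control diet without antibody and 31740, 29060, 5982 and 26640 with antibody. The high-fat libraries had 1212, 92640, 3835 and 5581 without antibody and 103, 1756, 752 and 303 with it. On both diets the antibody and untreated libraries overlapped, on control diet because antibody replicate 3 lay between untreated replicates 1 and 2. In the 3 libraries almost without Myh4, Acta1 remained at 179, 103 and 752.

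The giant scaffold titin (Ttn) ran from 0.924 to 32010, nebulin (Neb), the thin filament ruler, from 26.8 to 16160, and the titin cap Tcap from 0.102 to 3560. The kinase Mylk4 ran from 0 to 9953, the Z-disc protein myotilin (Myot) from 0 to 2481, and the thin filament capper Tmod4 from 5.88 to 1109. All 6 had their highest value in high-fat diet replicate 2 without antibody. Desmin and beta-tropomyosin, which smooth muscle also makes, varied less. Desmin (Des), an intermediate filament, read 1115, 1020, 938 and 631 on control diet without antibody and 2846, 2582, 1110 and 2435 with antibody. It read 645, 7578, 686 and 755 on high-fat diet without antibody and 497, 627, 483 and 518 with it. The 4 high-fat antibody libraries were the lowest 4 of the 16. Beta-tropomyosin (Tpm2) had its minimum, 284, in control-diet replicate 4, and its maximum, 12920, in high-fat diet replicate 2.

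Excitation genes kept the common pattern. The calcium release channel Ryr1 ran from 19.7 to 14840, the voltage sensor Cacna1s from 0.883 to 3157, and the sodium channel Scn4a from 0.906 to 1659. Their log2 ranges, 9.49, 10.71 and 9.77, were close to that of Acta1, 9.8. On control diet all 3 were higher in every antibody library than in any library without antibody, by a narrow margin in antibody replicate 3. There Ryr1 was 1035 against 1026 in untreated replicate 2, Cacna1s 258 against 238 and Scn4a 151 against 141.

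Energy genes divided into muscle-restricted and shared ones. Ckm, the cytosolic creatine kinase of muscle, read 2713, 3835, 711 and 0.924 on control diet without antibody and 23950, 20880, 3912 and 20090 with antibody. Its high-fat levels were 851, 67420, 2222 and 2628 without antibody and 0, 965, 0 and 109 with it. Its control-diet groups did not overlap, although antibody replicate 3 exceeded untreated replicate 2 by little. Mitochondrial creatine kinase (Ckmt2) ran from 0 to 889, phosphoglycerate mutase (Pgam2) from 1.46 to 4198, glycogen phosphorylase (Pygm) from 54.3 to 28280, and the muscle cytochrome oxidase subunit Cox6a2 from 0.939 to 769.

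Pfkm, a phosphofructokinase that many tissues share, read 1188, 1968, 1744 and 1473 on control diet without antibody and 4903, 4342, 1924 and 3759 with antibody. With high-fat diet Pfkm read 1005, 11810, 932 and 1078 without antibody and 894, 1038, 699 and 1052 with it. Its floor in libraries almost without Myh4 was therefore close to its level in several others. Muscle enolase (Eno3) likewise kept 246, 264 and 233 in those 3 libraries.

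Car3, carbonic anhydrase III, a major transcript of both muscle and fat cells, did not take part. It read 452900, 465000, 415100 and 379700 on control diet without antibody, and 329400, 403700, 402400 and 426600 with antibody. The high-fat libraries stood at 446600, 442900, 438600 and 445500 without antibody and 402500, 426800, 439900 and 410800 with it. The log2 range over all libraries was 0.50, and Car3 alone was 1.28% to 1.86% of a library. High-fat diet replicate 2, the richest in Myh4, was inside the range of the other libraries for Car3.

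**Figure D3:**
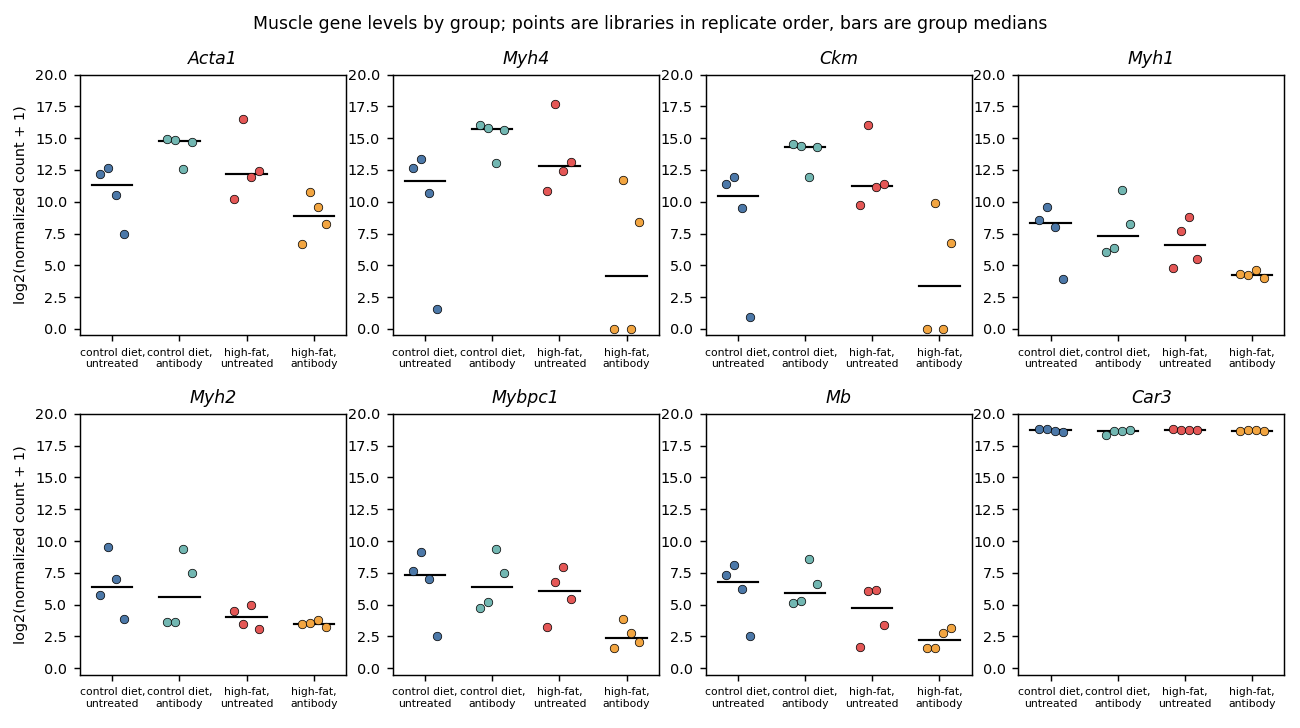
Log2(normalized count + 1) of 8 muscle genes by group, with libraries as points in replicate order and group medians as bars. The medians of Acta1, Myh4 and Ckm are highest with antibody on control diet and lowest with antibody on high-fat diet, the single highest library of all 3 genes is high-fat diet replicate 2 without antibody, and Car3 is flat.

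Nmrk2, a nicotinamide riboside kinase of muscle that makes an NAD precursor, was the metabolic gene with the clearest antibody difference on control diet. It read 0, 5.63, 0.155 and 0 without antibody and 298, 285, 18.1 and 93.2 with antibody. Nmrk2 on high-fat diet was 2.24, 186, 9.69 and 15.6 without antibody, and 0, 5.93, 0 and 0 with it. As a proportion of Ckm within a library it was 0%, 0.147% and 0.0218% in control-diet replicates 1 to 3, against 1.24%, 1.37%, 0.462% and 0.464% with antibody. High-fat libraries without antibody had 0.264%, 0.276%, 0.436% and 0.595%. The control-diet libraries without antibody were the lowest of these 3 groups, and the proportion did not overlap between them and either other group. That separation rests on Nmrk2 values near the floor, at most 5.63 in those control-diet libraries. In high-fat diet replicates 1, 3 and 4 without antibody Nmrk2 was also low, at 2.24, 9.69 and 15.6. With antibody on high-fat diet it could be read only in replicates 2 and 4, at 0.614% and 0%, and the latter overlapped the control-diet libraries without antibody. Nmrk2 overlaps Atcayos on the opposite strand, which read 25.9, 19.1, 8.8 and 0.961 without antibody and 38.4, 58.4, 18.9 and 33.1 with antibody on control diet. On high-fat diet Atcayos read 2.23, 129, 11.7 and 7.37 without antibody and 1.42, 3.93, 2.9 and 1.59 with it. The part of Atcayos reads in the Nmrk2 values was not tested. The ribosomal protein Rpl3l, the muscle counterpart of Rpl3, ran from 0 to 1007 with the common pattern.

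Likeness to Acta1 was measured as the root mean square difference of centred log2 values over the 16 libraries, so that 0 is identity. The nearest genes of the list were Ryr1 at 0.44, Casq1 at 0.46, Pygm at 0.54, Neb at 0.60 and Cox6a2 at 0.67. The farthest were Myl3 at 3.32, Myh4 at 3.24 and Myh2 at 3.07, and the swings of Myh4 were larger than those of Acta1. With a pseudocount of 10 in place of 1, Myh4 was at 2.14 and the farthest were Myh2 at 2.90 and Myl3 at 2.73. Of all 14189 tested genes 62 were nearer than 1, and 14 of those were in the list, Acta1 included, while the median gene was at 2.73. Outside the list the 8 nearest were Fbxo40 at 0.52, Rbfox1 at 0.59, Lmod3 at 0.63, Myo18b at 0.65, Dhrs7c at 0.67, Nctc1 at 0.67, Tmem233 at 0.68 and Cacng6 at 0.69. Only 1 of these 8 was still among the nearest with a pseudocount of 10. Fbxo40, an F-box protein of muscle, ran from 3.38 in high-fat antibody replicate 1 to 1366 in high-fat diet replicate 2.

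Diet was compared first without antibody. On high-fat diet 34 of the 40 tested genes were higher and 6 lower, with a median log2 change of 2.05 beside 0.02 for all genes, yet the difference was within the spread between libraries for nearly all. Among fast genes 12 of 14 were higher, and Myh1 and Myh2 were lower. Both tested slow genes, Mybpc1 and Myl3, were lower, as were Actn2 and Mb. By limma with Benjamini-Hochberg adjustment over all genes, 1 of 40 was called at an adjusted p under 0.05, where 8.15% of all tested genes were called. That gene, Myl3, fell by 3.74 on the log2 scale (SE 0.68, limma adjusted p = 0.0149). Its 4 high-fat libraries all lay below the 4 control-diet ones; of the 40 genes 1 separated downwards, Myl3, and 5.19% of all genes did. Nmrk2 differed by 3.45 (SE 1.17, limma adjusted p = 0.0727) and Myh2 by -2.54 (SE 1.22, adjusted p = 0.173). Acta1 differed by 2.07 (SE 1.29, limma adjusted p = 0.292) and Myh4 by 3.98 (SE 2.75, adjusted p = 0.338). The median change was 0.76 without high-fat diet replicate 2, and 0.72 without control-diet replicate 4, so 1 library in either group set its size. Leaving out high-fat diet replicate 1 gave 2 calls, Myl3 and Nmrk2, beside 13.8% of all genes. With only the 8 libraries without antibody in the fit, limma called 0 of 40 and 0% of all tested genes (Myl3 adjusted p = 0.162), and with the replicate number as a block the Myl3 adjusted p was 0.0556. The Myl3 call was also lost without control-diet replicate 4 (limma adjusted p = 0.0706) and without high-fat diet replicates 3 (0.0502) or 4 (0.0567), within a range of 0.000973 to 0.0706 over all single libraries left out, and its size went from -3.74 to -1.51 with a pseudocount of 10.

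Antibody was compared with no antibody on high-fat diet. Here 39 of 40 genes were lower with antibody, with a median log2 change of -4.31 beside 0.00 for all genes, and Myl3 was the exception at 1.65. All 14 fast genes were lower, with a median of -5.34, and so were all 10 shared sarcomere, 3 excitation and 10 metabolic genes. By limma 0 of 40 were called, where 0.0775% of all tested genes were. At an unadjusted p under 0.05, 32 were lower and 1 higher, beside 6.92% and 6.57% of all genes. The smallest adjusted p was that of Rpl3l, which differed by -5.06 (SE 1.25, limma adjusted p = 0.113), followed by Cacna1s at -5.06 and Ckmt2 at -5.38. Acta1 differed by -3.95 (SE 1.29, limma adjusted p = 0.187) and Myh4 by -8.51 (SE 2.75, adjusted p = 0.182). In 8 genes (Myh1, Des, Tpm2, Cacna1s, Scn4a, Ckmt2, Cox6a2 and Rpl3l) all antibody libraries lay below all others, where 3.47% of all genes separated that way. Without high-fat diet replicate 2 the median was -3.07. Leaving out high-fat diet replicate 1, the untreated library poorest in these genes, gave 3 calls, Cacna1s, Ckmt2 and Rpl3l, beside 1.91% of all genes.

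On control diet the antibody comparison ran the other way. With antibody 38 of 40 genes were higher and 2, Car3 and Myh2, lower, with a median log2 change of 3.59 beside -0.01 for all genes. Among fast genes 13 of 14 were higher, with a median of 3.97, and the 2 slow genes had changes of 0.11 and 0.52. Limma called 0 of 40, where it called 0.0987% of all tested genes. At an unadjusted p under 0.05, 29 were higher and 0 lower, beside 6.33% and 5.31% of all genes. Nmrk2 came nearest, differing by 6.07 (SE 1.17, limma adjusted p = 0.0646), then Pygm by 3.77 (adjusted p = 0.236) and Mylk4 by 5.33 (0.251). Acta1 differed by 3.55 (SE 1.29, limma adjusted p = 0.305) and Myh4 by 5.59 (SE 2.75, adjusted p = 0.455). In 13 genes, among them Ckm, Tnnt3, Ttn, Ryr1 and Nmrk2, every antibody library was above every other, where 3.43% of all genes separated that way. For Ckm, Tnnt3, Ttn and Ryr1 antibody replicate 3 exceeded untreated replicate 2 by little. Without control-diet replicate 4 the median was 2.27. Without high-fat diet replicate 2 limma called 5 genes (Des, Eno3, Myl1, Nmrk2 and Pfkm), beside 0.606% of all genes, and without replicate 1 it called Nmrk2 alone, beside 0.155%. For Nmrk2 the limma adjusted p was 0.0266 and 0.0447 there, and over all single libraries left out its adjusted p ran up to 0.236.

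Under antibody the 2 diets were farthest apart. In 39 of 40 genes the high-fat libraries were lower, with a median log2 change of -6.01 beside 0.02 for all genes, and Car3 was the exception at 0.11. For 38 genes, all but Car3 and Myh2, the 4 high-fat libraries lay wholly below the 4 control-diet ones, where 9.08% of all tested genes separated that way. Most of these genes rose and fell together from library to library, so the 38 are not separate observations. The 13 separated fast genes included Myh1, and both tested slow genes separated too, although Myl3 passed the filter only through control-diet libraries. In the fit over all 16 libraries limma called 0 of 40, where it called 0.00705% of all tested genes, and 38 were lower at an unadjusted p under 0.05, beside 9.71% of all genes. Nmrk2 differed by -6.10 (SE 1.17), Rpl3l by -6.37 (SE 1.25) and Cacna1s by -6.60 (SE 1.34), each with a limma adjusted p of 0.0859. Acta1 differed by -5.44 (SE 1.29, limma adjusted p = 0.0883) and Myh4 by -10.12 (SE 2.75, adjusted p = 0.0992).

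That count depended on which libraries set the spread. With only the 8 antibody libraries in the fit, limma called 37 of 40 lower, all but Car3, Myh1 and Myh2, where it called 4.52% of all tested genes. In that fit Acta1 differed by -5.44 with an SE of 0.83 (limma adjusted p = 0.00713), and Myh4 by -10.12 with an SE of 2.41 (adjusted p = 0.0478). The fit over all groups gave 30 calls without high-fat diet replicate 2, where 1.68% of all genes were called, although that library is in neither group compared. It gave 26 calls without control-diet replicate 4 (0.705% of all genes) and 19 without control-diet replicate 1 (1.58%), both untreated libraries. Leaving out control-diet replicate 3 and high-fat diet replicate 2 together gave 29 calls here (2.1% of all genes) and 0 for diet without antibody (0%). With libraries weighted by their scatter, 36 genes were called here (7.75% of all genes), 2 for diet without antibody (30.9%), 6 for antibody on high-fat diet (9.37%) and 1 for antibody on control diet (5.34%). Weighted calls thus made up a larger share of these 40 genes than of all genes for diet under antibody and antibody on high-fat diet, and a smaller one in the other comparisons. Within groups these genes varied far more than others: the median SD was 2.08 on the log2 scale, beside 0.20 for all tested genes.

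**Figure D4:**
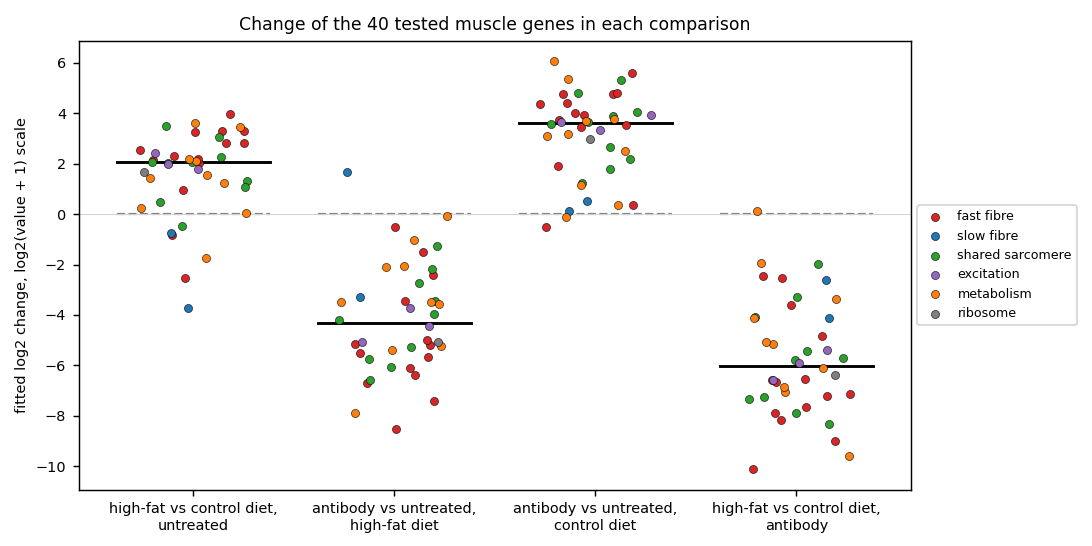
Fitted log2 changes of the 40 tested genes in 4 comparisons, on the log2(value + 1) scale, coloured by role. Solid bars are their medians, 2.05, -4.31, 3.59 and -6.01, and dashed bars are the medians of all tested genes.

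The difference between the antibody differences on the 2 diets was tested as an interaction. It was negative in 38 of 40 genes, with a median of -8.20, and it was largest for Myh4 at -14.11 (SE 3.88, limma adjusted p = 0.281). Limma called 0 of 40 and 0% of all tested genes, the lowest adjusted p being 0.264. At an unadjusted p under 0.05, 34 were negative, beside 3.72% of all genes. Nmrk2 had -9.55 (SE 1.65), Mylk4 -11.41 (SE 2.46), Scn4a -8.35 (SE 1.82) and Acta1 -7.51 (SE 1.83), all at that limma adjusted p. The 4 comparisons share libraries, so their medians are not separate pieces of evidence. Because most listed genes move together, the counts of genes within each comparison are not separate pieces of evidence either.

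Other muscle genes outside the list were read in the same way. Of 23 further sarcomere genes 19 were tested, and they had medians of 1.42 for diet without antibody, -3.19 and 2.78 for antibody on high-fat and control diet, and -4.55 for diet under antibody. The actin-binding Xirp2 and the M-band gene Myom2 led them between diets under antibody, at -7.48 and -7.11. Of 14 further excitation and calcium genes 12 were tested, with medians of 1.18, -2.07, 2.19 and -3.03, and triadin (Trdn) differed by -6.62 between diets under antibody. Atp2a2, the calcium pump of slow muscle and most other cells, was at 4971 to 7015 in all libraries. All 14 further metabolic genes were tested, with medians of 0.21, -0.36, 0.35 and -1.35. For diet without antibody 7 of them were higher on high-fat diet and 7 lower. Most of these are abundant in fat as well, as Aldoa at 31520 or more in every library, whereas the AMP deaminase Ampd1 ran from 0 to 3495. Among 12 myogenic genes 3 were tested, and Myf6, a myogenic factor of mature fibres, was the one with large changes, at 3.62 for antibody on control diet and -5.21 between diets under antibody. Limma called 0 genes of these 4 lists in any comparison, and at an unadjusted p under 0.05 between diets under antibody 18, 11, 9 and 1 of them were lower, beside 9.71% of all tested genes. Myod1 and Pax7, which mark muscle precursors, were not analysed here.

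Markers of other cells were read beside these. The 3 measured cardiac markers summed to 160 to 468, and Myh6, Tnnt2, Myl7, Nppa and Mybpc3 were not analysed here. Their median change between diets under antibody was 0.08, although the cardiac actin Actc1, which is also a sarcomere gene of the preceding lists, stood at -3.06. The 8 smooth muscle and mural markers had medians of 0.47, -0.22, 0.09 and 0.18 over the 4 comparisons. The 5 nerve and Schwann cell markers had medians between -0.62 and 0.39 over the 4 comparisons, the 2 tested lymphocyte markers between -0.33 and 0.13, and the 5 blood markers between -0.07 and 0.13. Adipocyte markers had medians of -0.03, 0.15, -0.01 and 0.10. The 10 brown and beige markers had medians of -1.51 for diet without antibody, 0.49 and 0.05 for antibody on high-fat and control diet, and -1.18 for diet under antibody. Ucp1 had the largest difference of that list without antibody, -5.10, which is beyond that of any of the 40 muscle genes there. In the diet comparison without antibody limma called the potassium channel Kcnk3 lower (-1.20, adjusted p = 0.046) and the smooth muscle genes Tagln (0.53, adjusted p = 0.0371) and Smtn (0.45, adjusted p = 0.0438) higher. Tenocyte and epithelial markers were not analysed here. The part of these cells in the muscle gene levels was not tested.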

How the data were processed

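Polyadenylated RNA from inguinal fat was sequenced as 16 libraries, each of 2 lanes, with a strand-keeping kit, per the labels' protocols. The submitters' processing notes name limma 3.42.2, STAR 2.7.0e, fastp 0.20.1, Subread 1.6.2 and featureCounts, with builds mm10 and GRCm38 and no stated role. The sources used here do not give the normalization. Values deposited by the authors are a linear signal of normalized counts with no recoverable whole reads, so depth is unknown and no count model was run.

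Values were analysed as log2(value + 1) with limma 3.58.1 in R 4.3.3, with a mean per group, a variance trend, 12 residual degrees of freedom and Benjamini-Hochberg adjustment over all genes. Fold changes on this scale understate those of low genes. A gene was tested where its value exceeded 24.49, which is 1 part in 1000000 of the median column total, in at least 4 libraries: 14189 of 16091 genes passed and 1902 did not, among them Tnnt1 and Tnnc1. The script was tested on simulated data. Groups come from the labels. Same-numbered libraries were not treated as pairs, since 10 of 24 such pairs correlated above 0.1, within a range of -0.539 to 0.487. The pairs of replicate 2 were all positive, from 0.126 to 0.487. These counts cannot exclude a pairing or batch that some numbers share.

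The gene list, its roles and the other lists were chosen with earlier results of these data known. Genes given with test values are Acta1, Myh4 and the 3 with the smallest p in each comparison, a rule chosen after their values were seen. Genes outside the lists are the 8 most like Acta1, and marker genes past the threshold. Coordinates and exon lengths are from GENCODE vM21, start regions from RefSeq. Per-kilobase values divide by the exon length of the gene. Proportions were formed only where the larger gene reached 50. Alternatives were other pseudocounts (0.5 and 10), filters, scalings, limma settings, the replicate number as a block, only the groups compared, and leaving out libraries.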

Additional observations from a re-analysis of the deposited data

Results flagged for a closer look

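Several libraries stood far from the other 3 of their group, by the gap to the nearest library divided by the group's range. This happened in 23 of 76 gene and group combinations, over 19 genes. Chance gives about 1 in 20 for separate, normally distributed values. These values are linear and skewed upwards and the genes move together, so that rate does not apply to this count. High-fat diet replicate 2 without antibody was the high library for Acta1 (92640), Myh4 (213700), Atp2a1 (81380), Ckm (67420), Tnnt3 (48150), Pygm (28280), Mylpf (22070), Pvalb (21870), Pfkm (11810), Des (7578) and Nmrk2 (186.2). High-fat diet replicate 1 was the high one for Myl3, at 3.065. With antibody on high-fat diet, replicate 2 was the high library for Myh4 (3339), Atp2a1 (1087), Ckm (965.1), Tnnt3 (739.9), Pygm (449.7), Mylpf (439.2), Pvalb (364.9) and Nmrk2 (5.927). On control diet, antibody replicate 3 stood apart for Myh1 (1981), and replicate 2 without antibody for Myh2 (722.2) and Nmrk2 (5.629).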

How the results depend on the processing

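Direction held for the named genes: of 685 values under the alternatives, 641 kept direction and side of the threshold, 6 dropped below it, 38 passed it and 0 reversed. These are Acta1, Myh4 and the 3 genes of smallest p in each comparison, which were likely to keep their sign. Most alternatives also refit nearly the same libraries. The direction of the other listed genes was not followed. Counts of genes called moved more. For diet without antibody (1 called), the count was 0 with the stricter filter, under which Myl3 was not tested, 0 with only the groups compared, 0 with the replicate number as a block, 0 without control-diet replicate 3 and high-fat diet replicate 2 (chosen after seeing the data), 2 with array weights, and 0 to 2 with each library left out. For antibody on high-fat diet (0 called) it was 6 with array weights and 0 to 3 with each library left out. For antibody on control diet (0 called) it was 1 with array weights, 1 with the replicate block and 0 to 5 with each library left out. For diet under antibody (0 called) it was 37 with only the groups compared, 36 with array weights, 29 without the 2 libraries named above, and 0 to 30 with each library left out. For the interaction (0 called) it was 1 with the replicate block, Nmrk2, and the median was -5.99 with array weights in place of -8.20. The block changed no other call of a listed gene beyond Myl3 and Nmrk2. For the interaction no alternative called more than 1 of all tested genes, so under the block Nmrk2 was the only one. For the other comparisons the share of all genes called with the block is not given here. The block count for antibody on control diet therefore cannot be set beside such a share. Of 48 best matches between groups 13 were to the same number, which does not settle whether the numbers mark pairs or a batch. With 100 bases in place of 250, 19 of 36 genes had an E-box in place of 32, which was 45.7% of their regions beside 34.4% of all regions. Scaling to equal totals moved the median of all genes to 0.12 for diet without antibody, and 34 of 40 genes stayed positive. Over all tested genes the calls ranged from 0 to 4380, 1 to 1330, 0 to 757, 0 to 1099 and 0 to 1 in the 5 comparisons, beside 1157, 11, 14, 1 and 0. Depth is unknown, so values under about 20 normalized counts, such as most of Myl3, Nmrk2, Tnnt1 and Tnnc1, have no counting interval. The causes of these shifts were not tested.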
